A study of Mus musculus with 8 samples.

Results

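A set of 10 activity-regulated genes that act at or downstream of synapses were described in ribosome-associated mRNA of parvalbumin-expressing (PV+) cortical interneurons, namely *Arc*, *Homer1*, *Plk2*, *Nptx1*, *Nptx2*, *Nptxr*, *Ptgs2*, *Gadd45b*, *Gadd45g* and *Rgs2*. They were taken by gene symbol from the 45706 genes of the deposited tables, and all 10 were found and passed the filter on low counts. The RNA came from translating ribosome affinity purification, in which a tagged ribosomal protein is made in chosen cells and pulled down with the mRNA bound to it. The question is whether ribosome-associated mRNA of these 10 genes differed between PV+ interneurons that had been activated and those that had not.

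All mice carried *Pvalb*Flp/+;*Neurod6*Cre/+ and received an AAV-flox-fdio vector at postnatal day 1 that encodes HA-RPL10a and myc-hM3Dq, joined by a self-cleaving peptide. Both groups thus expressed the tagged ribosomal protein and the receptor hM3Dq, which raises neuronal firing when its ligand clozapine-N-oxide (CNO) is given. The human synapsin promoter drives the construct, Flp recombinase turns it on in cells with a history of *Pvalb* expression, and Cre removes it from *Neurod6* lineage pyramidal cells. At an age of P42 to P70 by the labels, for which the methods give a slightly later lower bound at dissection, 4 samples were taken after 5 injections of CNO at 1 mg/kg over about 48 h, and 4 after vehicle on the same schedule. Each sample pooled the infected cortex of 4 brains, and the numbers 1 to 4 within each group are called replicates here. The last injection was given on the morning of the experiment, and the time from it to dissection is not given in the sources used here.

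Neuronal firing raises calcium and cyclic AMP signals that switch on transcription, both of regulators such as *Fos* and of effectors that act on the synapse. ARC removes AMPA-type glutamate receptors from excitatory synapses, the short form of HOMER1 uncouples the scaffold that ties metabotropic receptors to the postsynaptic density, and PLK2 is a kinase that weakens synapses after long activity. The neuronal pentraxins gather AMPA receptors, and NPTX2, the activity-induced member, is secreted at excitatory synapses onto PV+ interneurons. PTGS2 makes prostaglandins, GADD45 proteins act in stress signalling and DNA demethylation, and RGS2 shortens signalling through Gq, the G protein to which hM3Dq couples.

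None of the 10 genes passed the cut-offs between CNO and vehicle samples (edgeR's quasi-likelihood test, Benjamini-Hochberg adjusted p under 0.05 over 17495 genes tested, change above 1.5-fold and mean abundance above 1 TPM, the length-scaled unit of transcript abundance). The share of all genes that did so was 0%, or 0 genes, with 716 genes at an unadjusted p under 0.05. Other tests of the same samples called few genes, 12 (0.0686%) with the likelihood ratio test of edgeR and robust dispersion and 10 (0.0572%) with the Wald test of DESeq2, and 0 of the 10 were among either. At an unadjusted p under 0.05, 2 of the 10 genes were higher in CNO samples, *Rgs2* and *Gadd45g*, and 0 were lower, where 4.09% of all genes tested passed in either direction, 1.44% higher and 2.65% lower. The log2 fold change, CNO minus vehicle, was positive for 5 and negative for 5 of the genes, against 50.4% positive among all genes. Its median over the 10 genes was 0.03, and over all genes 0.0014. For 0 of the 10 genes did all CNO samples lie on one side of all vehicle samples, which held for 2.42% of genes tested, 0.789% higher and 1.63% lower.

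**Figure D1:**
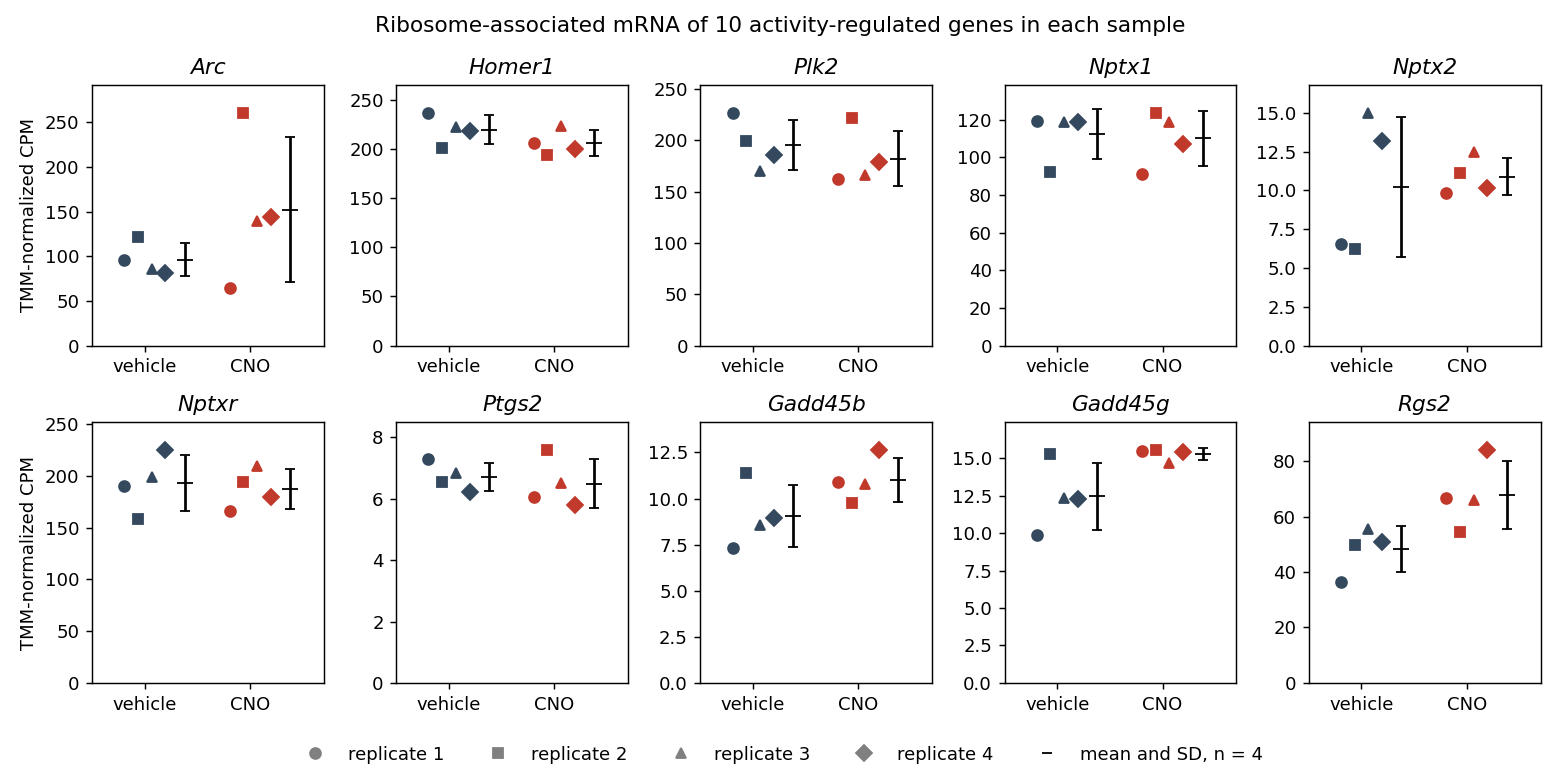
Normalized counts (CPM, vertical axes, each starting at 0) of the 10 genes in every vehicle sample (dark blue) and CNO sample (red), with marker shapes for the replicate number and bars for the mean and SD of 4 samples. Groups overlap in every panel, *Arc* spans 64.3 to 261 CPM within CNO, and *Rgs2* has the CNO mean of 67.7 against 48.2 in vehicle.

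As a check of activation, *Fos* was at 32.2, 54.4, 40.3 and 69.5 CPM in CNO replicates 1 to 4 and at 12.5, 15.8, 11.3 and 11.8 CPM in vehicle replicates 1 to 4. CPM are counts relative to the library total, scaled by the trimmed mean of M-values (TMM). The log2 fold change of *Fos* was 1.93 ± 0.22 (SE), and its adjusted p of 0.0520 was the smallest of all genes by the quasi-likelihood test. The reads counted on genes lay between 44064161 and 49413273 per sample, so that 3 counts correspond to 0.0607 to 0.0681 CPM, and the correlation of log2 CPM between samples of one group lay between 0.975 and 0.989. Vehicle replicate 1 stood apart in the markers of the captured cells: *Pvalb* was at 300.1 TPM there and at 819.7 to 1160.4 TPM in the other samples, and *Rpl10a*, the gene of the tagged protein, at 301 against 655 to 1295 TPM. *Slc17a7*, the vesicular glutamate transporter of pyramidal cells, which lie outside the labelled cell type, was present in all samples at 331 to 547 TPM. In such bulk samples fewer captured cells and less RNA per captured cell cannot be told apart.

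In the vehicle samples the 10 genes spanned a wide range of abundance per transcript length. These are levels in the whole pulldown, in which *Slc17a7* of the unlabelled pyramidal cells was present as well. How much of each level came from unlabelled cells was not tested. *Plk2* averaged 166 ± 27.4 TPM and *Homer1* 160.3 ± 16.4 TPM (SD, n = 4), above 94.5% and 94.2% of the genes tested, and their ranges overlapped. They were followed by *Rgs2* at 102 ± 6.28 TPM, *Nptxr* at 89.7 ± 12.9 TPM and *Arc* at 74.5 ± 14.7 TPM (SD, n = 4). Neighbours in this order from *Rgs2* to *Arc* overlapped. *Nptx1* at 49.6 ± 6.42 TPM, *Gadd45g* at 32.4 ± 4.38 TPM and *Gadd45b* at 18.7 ± 3.12 TPM formed the lower middle. *Nptx2* was at 9.58 ± 3.98 TPM and *Ptgs2* at 3.50 ± 0.336 TPM, higher than 43.5% and 28.7% of genes tested. From *Arc* downwards each gene's vehicle samples lay above all vehicle samples of the next gene. *Homer1*, too, lay above *Rgs2* in every vehicle sample.

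Promoter sequence from RefSeq was available for 6 of the 10 genes (GRCm38.p6, 7 windows), and the 250 bases before the annotated start are shown for 5 of them, since these windows carry the letters to which cyclic AMP and calcium signalling is classically linked or a TATA box. Capitals mark TGACG or its reverse complement, TGACGTCA, and TATAAA, searched on both strands together with TGANTCA and the CArG box, of which these windows held none. *Rgs2* (chr1:144004150-144004399, minus strand) and the first *Homer1* window (chr13:93303507-93303756, plus strand) hold TGACG, the core of the cyclic AMP response element. *Plk2* (chr13:110394794-110395043, plus strand) holds the full TGACGTCA, which contains TGACG on each strand. *Gadd45b* (chr10:80929841-80930090, plus strand) and *Gadd45g* (chr13:51846425-51846674, plus strand) hold TATAAA.
Rgs2: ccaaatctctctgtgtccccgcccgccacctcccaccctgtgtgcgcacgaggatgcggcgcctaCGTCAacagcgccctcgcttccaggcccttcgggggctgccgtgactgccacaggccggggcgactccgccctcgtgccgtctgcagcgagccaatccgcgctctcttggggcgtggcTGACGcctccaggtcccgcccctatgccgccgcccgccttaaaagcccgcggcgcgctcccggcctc
Homer1: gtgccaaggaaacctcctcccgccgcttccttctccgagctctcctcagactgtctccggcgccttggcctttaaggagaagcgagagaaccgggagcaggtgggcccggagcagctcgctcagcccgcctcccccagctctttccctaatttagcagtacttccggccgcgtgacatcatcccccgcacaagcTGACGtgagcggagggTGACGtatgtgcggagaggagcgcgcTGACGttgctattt
Plk2: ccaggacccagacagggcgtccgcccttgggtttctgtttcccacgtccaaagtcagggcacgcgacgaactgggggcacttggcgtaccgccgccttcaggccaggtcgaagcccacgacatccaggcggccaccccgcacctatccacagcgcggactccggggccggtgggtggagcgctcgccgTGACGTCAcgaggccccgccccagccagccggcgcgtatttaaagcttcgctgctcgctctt
Gadd45b: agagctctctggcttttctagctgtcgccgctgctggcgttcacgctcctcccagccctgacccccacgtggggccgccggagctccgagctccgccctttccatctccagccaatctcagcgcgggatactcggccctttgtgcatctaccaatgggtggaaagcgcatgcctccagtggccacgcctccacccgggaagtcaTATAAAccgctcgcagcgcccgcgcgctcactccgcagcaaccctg
Gadd45g: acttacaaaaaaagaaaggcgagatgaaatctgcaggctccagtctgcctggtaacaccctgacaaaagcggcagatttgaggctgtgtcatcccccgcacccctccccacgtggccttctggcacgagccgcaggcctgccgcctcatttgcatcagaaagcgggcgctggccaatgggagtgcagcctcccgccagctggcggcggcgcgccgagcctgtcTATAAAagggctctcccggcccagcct

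Positions count back from the start annotated in RefSeq, where each window ends, which can differ from the GENCODE positions given for the genes. The *Homer1* window lies inside the GENCODE span of the gene, and the *Rgs2* and *Gadd45b* windows reach into theirs. TGACG occurs 2 times in the *Rgs2* window, starting 185 and 67 bases before the RefSeq start, and 3 times in the *Homer1* window at 56, 40 and 14 bases. The full element of *Plk2* starts 62 bases before the start, and TATAAA lies 46 bases before that of *Gadd45b* and 27 before that of *Gadd45g*. Among 32851 RefSeq windows of the same length, 17.8% hold TGACG, 1.55% TGACGTCA, 12.4% TATAAA, 6.75% TGANTCA and 1.47% a CArG box. The *Ptgs2* window and the second *Homer1* window hold none of these motifs. A match describes the window and is not a measured binding site.

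*Arc* (chr15:74669083-74672570 on GRCm38, minus strand) had the largest difference in means of the 10 genes and the largest spread. It was at 64.3, 261, 139.9 and 144 CPM in CNO replicates 1 to 4 and at 95.7, 122, 85.8 and 80.9 CPM in vehicle replicates 1 to 4. CNO replicates 2, 3 and 4 lay above every vehicle sample, and CNO replicate 1 below every vehicle sample. The log2 fold change was 0.66 ± 0.33 (SE), with a 95% interval from -0.06 to 1.38 and an adjusted p of 0.817 (edgeR's quasi-likelihood test). The two-sided exact permutation test of log2 CPM gave p = 0.314, where 4 samples against 4 allow no p under 0.0286. The highest CNO sample was 4.05 times the lowest, against 1.51 times in vehicle. The SD of log2 CPM within CNO, 0.83, exceeded that of 97.0% of the genes tested. Its size rested on CNO replicates 1 and 2, since the log2 fold change was 0.27 without replicate 2 and 0.92 without replicate 1, with unadjusted p of 0.316 and 0.0029 by the quasi-likelihood test. Once the model held an index of cell type markers, described with *Rgs2*, it was 0.83 with an unadjusted p of 0.0243, and by the robust likelihood ratio test of edgeR 0.56 with an unadjusted p of 0.0134. Its adjusted p lay between 0.342 and 1.00 over the 22 alternative settings, and its unadjusted p was under 0.05 in 5 of them.

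The genes whose pattern over the 8 samples was most like that of *Arc* were *Nr4a1*, an activity-induced nuclear receptor, *Cyr61*, a secreted immediate early matrix protein, and *Derl3*, a protein of the endoplasmic reticulum. Likeness was the root mean square difference of mean-centred log2 CPM, which was 0.253, 0.261 and 0.306 for these genes against a median of 0.633 over 15172 genes. These genes were picked as the closest, so values below the median were given in advance. A gene without any change over the samples would score 0.590. *Nr4a1* was at 27.7, 63.6, 39.9 and 52.6 CPM in CNO replicates 1 to 4 and at 28.6, 32.1, 30.2 and 23.8 CPM in vehicle. As for *Arc*, CNO replicate 1 sat within or below the vehicle values and CNO replicate 2 was the highest sample. *Fos* ranked the CNO samples differently, with replicate 4 highest, and its lowest CNO value of 32.2 CPM lay above all vehicle samples, as the plot of *Arc*, *Nr4a1*, *Cyr61* and *Fos* shows. The points share their libraries and their normalization, and no test was made of the likeness.

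**Figure D2:**
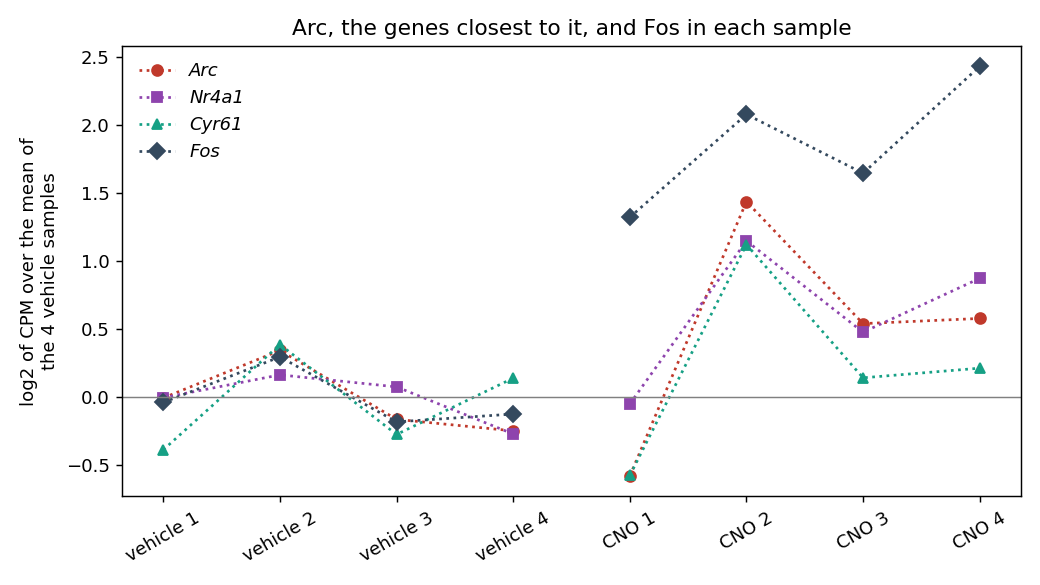
Log2 of CPM over the mean of the 4 vehicle samples (vertical axis) for *Arc*, *Nr4a1*, *Cyr61* and *Fos* in each vehicle and CNO sample (horizontal axis), with dotted lines joining the samples of a group only to guide the eye. *Arc*, *Nr4a1* and *Cyr61* have their lowest CNO value in replicate 1 and their highest in replicate 2, and *Fos* is above every vehicle sample in all 4 CNO samples.

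*Homer1* (chr13:93299635-93405129, plus strand) was one of the most even genes. It was at 206, 194, 224 and 200.2 CPM in CNO replicates 1 to 4 and at 237, 201, 222 and 218 CPM in vehicle. The groups overlapped over most of their range. Its log2 fold change was -0.09 ± 0.097 (SE) with a 95% interval from -0.31 to 0.12, which leaves out a difference of 1.5-fold in either direction. The counts sum all forms of a gene, and GENCODE lists 12 transcripts of *Homer1* between 625 and 5713 nucleotides, so the short activity-induced form and the long scaffold forms are not separated in these files. The 2 predicted genes *Gm47075* and *Gm47088* lie within its span on the same strand.

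An indirect view of transcript form is the ratio of a gene's deposited count to its deposited TPM, which is proportional to the length weight that the authors' quantification assigned to the gene. Relative to the median gene of each sample, this weight of *Homer1* was 0.998, 0.995, 0.986 and 0.992 in CNO replicates 1 to 4 and 0.995, 0.997, 0.996 and 1.01 in vehicle. The log2 difference was -0.011, with p = 0.2 in a two-sided exact permutation test over the 70 assignments of samples. *Nptx1* and *Nptx2*, with 1 GENCODE transcript each, had -0.011 and -0.0096, so a shift of this size was not particular to *Homer1*. A larger share of shorter *Homer1* transcripts would lower the weight, and no difference was detected between the groups. The lengths do not tell which transcripts encode the short protein form. The weight therefore cannot decide whether the activity-induced form differed. For 0 of the 10 genes did the groups differ without overlap in this weight, against 1.24% of the 15123 genes with mean TPM above 1 and a value in every sample. *Rgs2* had the widest weights, from 0.886 in vehicle replicate 1 to 1.14 in CNO replicate 4, and its SD over the samples exceeded that of 84.9% of genes.

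*Plk2* (chr13:110395046-110400844, plus strand) was at 162, 221, 166 and 178 CPM in CNO replicates 1 to 4 and at 227, 199, 169.9 and 186 CPM in vehicle. The highest CNO sample, replicate 2, lay just below the highest vehicle sample, and the groups overlapped throughout. The difference on the log2 scale was -0.10 ± 0.13 (SE) with a 95% interval from -0.39 to 0.19. CNO replicate 2, the sample with the highest *Arc*, therefore also had the highest *Plk2* within its group.

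Of the neuronal pentraxins, *Nptx1* and the membrane-bound *Nptxr* had intervals within 1.5-fold, and *Nptx2* had a wide one. *Nptx1* (chr11:119538719-119547753, minus strand) was at 91.2, 124, 119 and 107 CPM in CNO replicates 1 to 4 and at 119, 92.5, 119 and 119 CPM in vehicle. *Nptxr* (chr15:79786351-79804766, minus strand) was at 166, 194, 209.9 and 179 CPM in CNO and at 190.4, 159, 199 and 225 CPM in vehicle. In both genes vehicle replicate 2 was the lowest vehicle sample and CNO replicate 1 the lowest CNO sample, and the groups overlapped. The log2 fold changes were -0.03 (95% interval -0.30 to 0.25) for *Nptx1* and -0.05 (-0.32 to 0.23) for *Nptxr*. Values of *Nptxr* are uncertain, because 17.1% of the 31-base stretches of its transcripts also occur in other genes, chiefly *Npcd*, which overlaps it on the same strand.

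*Nptx2* (chr5:144545902-144557478, plus strand), also known as Narp, was at 9.81, 11.1, 12.5 and 10.2 CPM in CNO replicates 1 to 4 and at 6.53, 6.21, 15.0 and 13.2 CPM in vehicle. All CNO samples lay within the vehicle range, above vehicle replicates 1 and 2 and below vehicle replicates 3 and 4. Its log2 fold change was 0.09 ± 0.27 (SE), with a 95% interval from -0.50 to 0.68, the widest after that of *Arc*, so that a 1.5-fold difference upwards lay inside it. The SD of log2 CPM within vehicle, 0.66, exceeded that of 94.5% of genes tested. Taken over replicates 1 and 2 alone the difference of mean log2 CPM was 0.71, and over replicates 3 and 4 it was -0.32. The sign turned to -0.08 without vehicle replicate 1 and to -0.09 without vehicle replicate 2. The most similar genes over the 8 samples were *Sptb*, a spectrin, *Cenpf*, a centromere protein, and *Acan*, the core proteoglycan of perineuronal nets, with root mean square differences of 0.150, 0.169 and 0.170 against a median of 0.451 over all genes. They were picked as the closest, and an unchanging gene would score 0.427.

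*Ptgs2* (chr1:150100031-150108227, plus strand), the activity-induced cyclooxygenase, had the lowest level of the 10 genes. It was at 6.06, 7.59, 6.53 and 5.79 CPM in CNO replicates 1 to 4 and at 7.29, 6.55, 6.83 and 6.21 CPM in vehicle, which stands for 275 to 359 counts a sample. The samples of the groups were interleaved. A log2 fold change of -0.05 ± 0.13 (SE) was fitted, with a 95% interval from -0.33 to 0.23. Of the other genes of prostaglandin synthesis, reception and transport, 11 of 12 were tested and 0 passed an unadjusted p of 0.05, beside 4.09% of all genes. Their median log2 fold change was 0.09. Among them *Ptges*, the inducible prostaglandin E synthase, had 0.32 (SE 0.26) and *Hpgd*, which degrades prostaglandins, -0.28 (SE 0.18).

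*Rgs2* (chr1:143999338-144004161, minus strand) had the smallest p of the 10 genes. It was at 66.7, 54.4, 65.9 and 84.0 CPM in CNO replicates 1 to 4 and at 36.5, 49.9, 55.6 and 51.0 CPM in vehicle. The groups met at one point only, where CNO replicate 2 lay just below vehicle replicate 3. On the TPM scale they did not overlap, with 114 to 140.4 in CNO and 93.2 to 108 in vehicle. The share of all genes without overlap on TPM is not given here. The CNO mean was 1.40-fold the vehicle mean in the fitted model. The log2 fold change was 0.49 ± 0.15 (SE) with a 95% interval from 0.15 to 0.83, an unadjusted p of 0.00916 and an adjusted p of 0.817 (edgeR's quasi-likelihood test). The two-sided exact permutation test gave p = 0.0571. The difference was positive in all 22 alternative settings tried for each gene, from 0.26 to 0.58, and its unadjusted p stayed under 0.05 in all 22, while its adjusted p lay between 0.427 and 1.00. Measures scaled by transcript length gave smaller differences, 0.39 with a length offset and 0.30 by limma on log2(TPM + 1). The length weight of *Rgs2* differed by 0.106 on the log2 scale, higher in CNO, with overlapping groups.

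Levels of *Rgs2* moved with the markers of the captured cells. A marker index was taken as the difference between the average log2 CPM of 12 markers of PV+ interneurons and that of 12 markers of pyramidal cells. It was 1.27, 0.55, 1.08 and 1.65 in CNO replicates 1 to 4 and -0.70, 0.66, 1.11 and 0.97 in vehicle. The lowest and the highest sample of the index, vehicle replicate 1 and CNO replicate 4, were also the lowest and the highest of *Rgs2*. Once the index was a term of the fit, the log2 fold change of *Rgs2* was 0.26 ± 0.078 (SE) with an unadjusted p of 0.00653 by the quasi-likelihood test, where 3.18% of all genes had an unadjusted p under 0.05. Without vehicle replicate 1 it was 0.37 with an unadjusted p of 0.0135. The difference was thus smaller with either step and kept its sign. The genes most like *Rgs2* over the samples were *Csdc2*, *Ppfia4* and *Lrrc61*, with root mean square differences of 0.0475, 0.0614 and 0.0743 against a median of 0.369. They were picked as the closest, and an unchanging gene would score 0.333.

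Markers of several cell types were read as well. All 12 PV+ interneuron markers had positive log2 fold changes (median 0.43), of which *Gad2*, an enzyme of GABA synthesis, had an unadjusted p under 0.05, and their summed level was 2679 to 4160 TPM in CNO and 1255 to 3316 TPM in vehicle. Of 12 pyramidal cell markers, 11 had negative values (median -0.13), with summed levels of 1452 to 1988 TPM in CNO and 1639 to 2327 TPM in vehicle. All 5 oligodendrocyte and all 5 microglial markers were negative (medians -0.23 and -0.19, with *P2ry12* at an unadjusted p under 0.05), 4 of 5 astrocyte and 3 of 5 SST+ and VIP+ interneuron markers were negative (medians -0.15 and -0.18), and all 5 endothelial markers were positive (median 0.37). Vehicle replicate 1 carried much of the PV+ values. Without it 11 of 12 PV+ interneuron markers were positive, *Kcnc1* turned negative, the median fell to 0.19 and the summed level in vehicle was 3042 to 3316 TPM, while 11 of 12 pyramidal cell markers were still negative (median -0.09). Every marker of every list was detected. The summed levels were 423 to 805 TPM in CNO and 588 to 744 TPM in vehicle for oligodendrocytes, and 37.3 to 59.5 TPM against 47.2 to 69.99 TPM for microglia. They were 154 to 238 TPM against 183 to 246 TPM for astrocytes, 298 to 336 TPM against 313 to 424 TPM for SST+ and VIP+ interneurons, and 21.9 to 63.4 TPM against 33.1 to 49.0 TPM for endothelial cells. Apart from the fits with the index, the part of cell content in the values of the 10 genes was not tested.

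**Figure D3:**
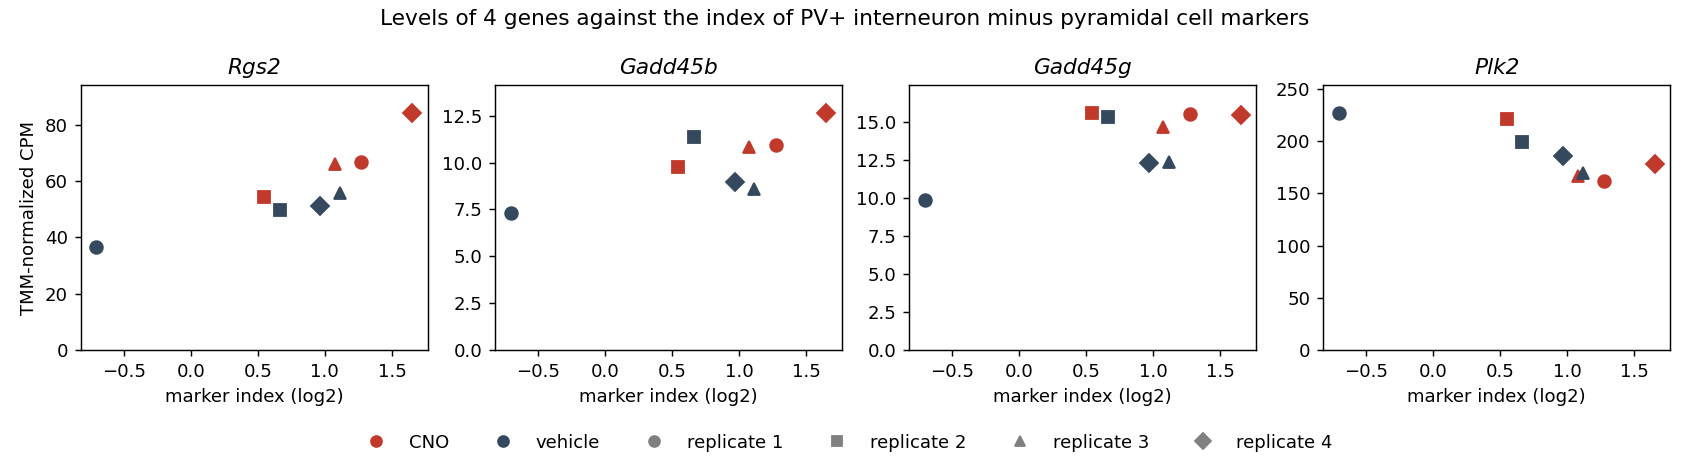
Normalized CPM (vertical axes, each starting at 0) of *Rgs2*, *Gadd45b*, *Gadd45g* and *Plk2* in each sample against the marker index on a log2 scale (horizontal axis), for CNO samples in red and vehicle samples in dark blue with a marker shape for each replicate number. Vehicle replicate 1 lies apart at -0.70, where *Rgs2*, *Gadd45b* and *Gadd45g* have their lowest and *Plk2* its highest value.

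Of the *Gadd45* genes, *Gadd45g* alone had an unadjusted p under 0.05, and none passed the adjusted threshold. *Gadd45g* (chr13:51846678-51848468, plus strand) was at 15.5, 15.6, 14.7 and 15.4 CPM in CNO replicates 1 to 4 and at 9.88, 15.3, 12.4 and 12.3 CPM in vehicle. CNO samples were nearly equal, their SD of log2 CPM of 0.039 being larger than that of 1.48% of genes, and vehicle replicate 2 reached into their range. A log2 fold change of 0.29 ± 0.13 (SE) was fitted, with a 95% interval from 0.01 to 0.58 and an unadjusted p of 0.0428 by the quasi-likelihood test, and the two-sided exact permutation test gave p = 0.0571. It was 0.19 without vehicle replicate 1 and 0.20 once the model held the marker index, with unadjusted p of 0.104 and 0.123, and p was under 0.05 in 10 of 22 settings.

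*Gadd45b* (chr10:80930073-80932204, plus strand) was at 10.9, 9.74, 10.8 and 12.6 CPM in CNO replicates 1 to 4 and at 7.33, 11.4, 8.58 and 8.96 CPM in vehicle. Vehicle replicate 2 was again the vehicle sample that reached into the CNO range. The fitted log2 fold change was 0.28 ± 0.15 (SE) with a 95% interval from -0.04 to 0.61, and the two-sided exact permutation test gave p = 0.114. It was 0.19 without vehicle replicate 1 and 0.15 once the model held the marker index. The third gene of the family, *Gadd45a*, had a log2 fold change of 0.04 ± 0.12 (SE). Closest to *Gadd45g* over the samples were *Scrn2*, *Mex3d* and *Myc*, at root mean square differences of 0.0357, 0.0718 and 0.0735. Those closest to *Gadd45b* were *2010320M18Rik*, *Pvt1* and *Saysd1*. For the evenly expressed genes the closest were *Uri1*, *Gm4944* and *Strn3* (*Homer1*), *Hexdc*, *Nat10* and *Myo1c* (*Nptx1*), *Taf1*, *Slc37a1* and *Synj2* (*Nptxr*), *Lrch3*, *Tut1* and *Fam35a* (*Plk2*), and *Lrfn4*, *Clk2* and *Tmem161a* (*Ptgs2*). None of these belongs to the lists used here.

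**Figure D4:**
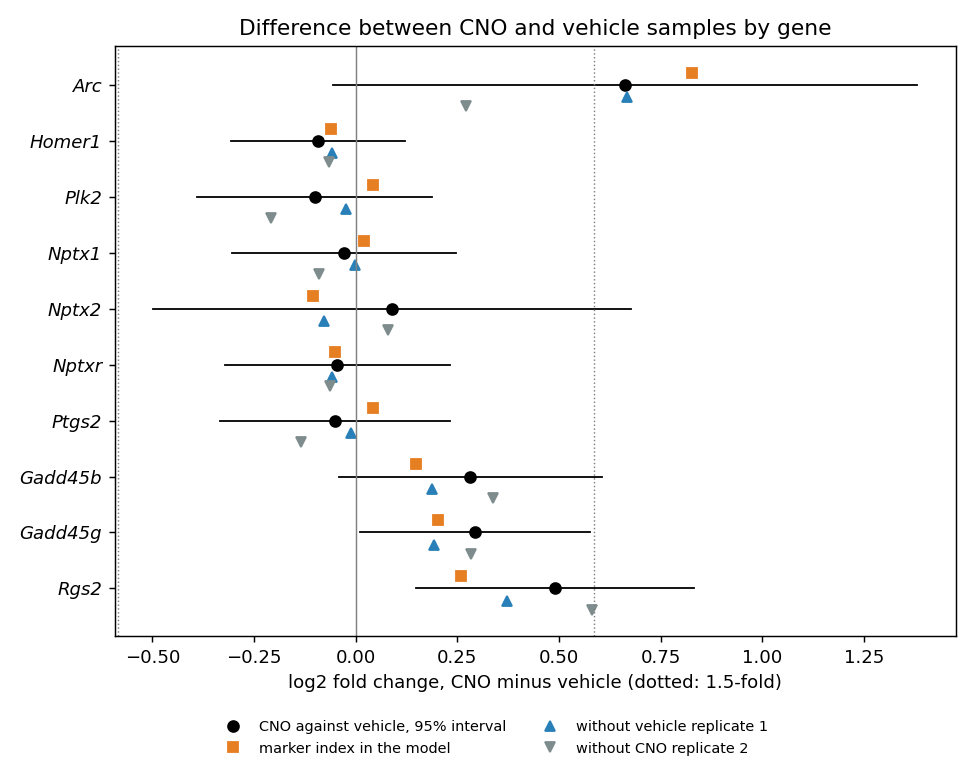
Log2 fold change, CNO minus vehicle (horizontal axis), of the 10 genes (vertical axis) with its 95% interval (black), beside the value from a model that holds the marker index (orange squares) and the values without vehicle replicate 1 (blue triangles) or without CNO replicate 2 (grey triangles), with dotted lines at 1.5-fold. The intervals of *Rgs2* and *Gadd45g* alone lie above 0, and the black point of *Arc* at 0.66 moves to 0.27 without CNO replicate 2.

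Relatives of the 10 genes were read from a list of 17 family members, of which 13 were tested and *Rgs18*, *Crp*, *Apcs* and *Ptx4* had too few counts. At an unadjusted p under 0.05, 1 was higher, *Homer3*, and 3 were lower, *Homer2*, *Plk1* and *Plk5*, and the median log2 fold change was -0.03. Of all genes tested, 1.44% were higher and 2.65% lower at this p. *Homer3*, a scaffold of metabotropic receptor signalling, was at 1.82, 2.24, 2.40 and 2.38 CPM in CNO replicates 1 to 4 and at 1.48, 1.62, 1.72 and 1.27 CPM in vehicle, without overlap, and had 0.54 ± 0.19 (SE). *Homer2* had -0.28 ± 0.10 (SE), so that the 3 *Homer* genes had values of both signs. *Plk5* had -0.29 ± 0.13 (SE), and *Plk1*, the mitotic kinase, had -0.84 ± 0.32 (SE) at a mean of only 0.583 TPM. *Rgs4*, another regulator of Gq signalling, was at 285 to 313 CPM in CNO and 322 to 416 CPM in vehicle. Its groups did not overlap, in the direction opposite to *Rgs2*, with a log2 fold change of -0.21 ± 0.11 (SE) and an unadjusted p of 0.0844 by the quasi-likelihood test. Groups without overlap were found for 0.789% of all genes tested in the higher and 1.63% in the lower direction.

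Among 20 other activity-induced effector genes, all of them tested, 3 were higher and 3 lower at an unadjusted p under 0.05, and the median log2 fold change was 0.04. The shares of all genes tested were 1.44% higher and 2.65% lower. *Trib1*, a pseudokinase that marks proteins for degradation, was at 12, 18.9, 14.0 and 15.6 CPM in CNO replicates 1 to 4 and at 10.9, 11.2, 10.95 and 11.5 CPM in vehicle. Its groups did not overlap, as held for 0.789% of all genes tested in this direction, and the log2 fold change was 0.44 ± 0.13 (SE). The clock gene *Per1* had 0.31 ± 0.12 and *Tiparp*, an ADP-ribosyltransferase, 0.27 ± 0.11 (SE). The lower genes were *Nrn1*, a growth factor of excitatory synapses, at -0.27 ± 0.11, *Inhba*, a subunit of activin, at -0.48 ± 0.20, and *Sorcs3*, a sorting receptor, at -0.28 ± 0.12 (SE). *Bdnf*, chosen for mention after its value was seen, had -0.25 ± 0.13 (SE). None of these genes passed the adjusted threshold.

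A further list held synaptic partners of ARC, HOMER1, PLK2 and the pentraxins. Of 18 genes, among them receptor subunits and *Shank* scaffolds, 0 had an unadjusted p under 0.05, beside 4.09% of all genes, and the log2 fold changes lay between -0.18 and 0.16 with a median of -0.03. *Dlgap1*, a scaffold that links PSD95 to SHANK, was at 858 to 943 CPM in CNO and 962 to 1176 CPM in vehicle without overlap, with -0.18 ± 0.11 (SE) and an unadjusted p of 0.135 by the quasi-likelihood test. Separation in the lower direction held for 1.63% of all genes tested. Of the genes through which Gq receptors signal, 10 of 11 were tested and 0 had an unadjusted p under 0.05, with a median of -0.04 and a range from -0.18 to 0.32. None of the 5 lists could hold a gene past all cut-offs, since no gene tested passed them in this fit.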

How the data were processed

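Ribosome-associated mRNA was sequenced in 4 CNO and 4 vehicle samples, grouped by their GEO titles. Per the labels and the methods, reads were trimmed (Trim Galore), aligned to GRCm38 (mm10) with STAR and quantified by Salmon. The versions of these tools are not given in the sources used here. The authors deposited estimated counts per gene without normalization, and TPM, in which each count is taken per transcript length and every sample has the same sum. All columns of per-sample values were used. Libraries were not stated to keep strand, so overlapping genes cannot be told apart by it.

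Whole-number rounding of the counts preceded all tests, which used R 4.3.3. Genes were dropped where 4 or more samples had under 10 counts, leaving 17495, and CNO was compared with vehicle in all 8 samples by edgeR 4.0.16 (TMM, quasi-likelihood test, Benjamini-Hochberg adjustment over all genes). The 95% intervals use the moderated degrees of freedom of that fit, and log2 CPM a prior count of 2. Single values were also compared by two-sided exact permutation over 70 assignments, whose smallest p is 0.0286. The p-values set the difference between the groups against the variation between samples. Each sample is a pool of 4 brains, so variation between single mice is not measured. The study names edgeR with a robust dispersion in its methods and a Wald test in a legend, so both the robust likelihood ratio test and DESeq2 (Wald) were alternatives. Limma 3.58.1 on log2(TPM + 1) and log2(TPM + 0.1), DESeq2 1.42.0, other normalizations and filters, a replicate block, a term for replicates 1 and 2 against 3 and 4, the marker index and leaving out each sample were alternatives. After seeing the data, the robust likelihood ratio test with the index was added, as were a fit lacking the 2 most abundant genes and the marker lists without vehicle replicate 1. On simulated data for this comparison, with 17495 genes of which 200 were changed by 1.5 on the log2 scale, the quasi-likelihood test recovered 195 and called 7 unchanged genes. The changed genes were drawn only from those above a minimum expected count. Their change exceeded the largest log2 fold change of the 10 genes, 0.66 for *Arc*. How often differences as small as those of the 10 genes would be recovered was not tested.

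The 10 genes and all lists were chosen with earlier results of these data known. The text names these 10, list genes with an unadjusted p under 0.05 or without overlap between groups, the 3 most similar genes of each, and *Fos*, *Pvalb*, *Slc17a7* and *Rpl10a*. Genes named beyond this rule (*Bdnf*, *Gadd45a*, *Ptges*, *Hpgd*, *Npcd*) serve as family, pathway or overlap context and were named after their values were seen. Positions and shared 31-base stretches of genes were computed from GENCODE M21 (GRCm38), and promoters are from RefSeq. Python 3.11.15 with matplotlib 3.10.9 drew the plots.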

Additional observations from a re-analysis of the deposited data

Results flagged for a closer look

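Of 40 groups of 4 values searched for one sample far from its group, 3 held one, where chance gives about 2. The gap to the nearest sample was compared with the range of the group, and a ratio above 0.829 counts as far. The log2 CPM of *Nptx1* in vehicle replicate 2 had a ratio of 0.972, at 92.5 CPM beside 119 CPM in each of the other vehicle samples. The length weight of *Homer1* in vehicle replicate 4 had a ratio of 0.931, at 1.01 where the other vehicle samples were at 0.995 to 0.997. The log2 CPM of *Gadd45g* in CNO replicate 3 had a ratio of 0.855, at 14.7 CPM beside 15.4 to 15.6 CPM in the other CNO samples, a group whose whole spread was among the smallest of all genes.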

How the results depend on the processing

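None of the 10 genes was called under any of the 22 alternatives. Of their 220 log2 fold changes under these alternatives 13 changed sign, all in genes whose own value was small. With the marker index as a term *Nptx1* became 0.020, *Nptx2* -0.11, *Plk2* 0.042 and *Ptgs2* 0.042, and with the likelihood ratio test and the index 0.013, -0.17, 0.041 and 0.043. Leaving out one sample turned *Nptx1* without CNO replicate 1 (range -0.12 to 0.051), *Nptx2* without vehicle replicate 1 or 2 (-0.089 to 0.33) and *Nptxr* without CNO replicate 1 or vehicle replicate 4 (-0.14 to 0.036). The cause was not tested.

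The count of all genes called, 0, was 12 with the likelihood ratio test, 10 with DESeq2, 4 without the count filter, 3 with a term for replicates 1 and 2, 13 with the likelihood ratio test and the index, and 0 to 2 with one sample left out. The number of the 10 genes at an unadjusted p under 0.05, 2, was 3 with the robust likelihood ratio test and 3 without the count filter, where *Arc* was added, 1 by library size only and 1 by limma on TPM with either pseudocount, and 1 to 3 with one sample left out. Of the 10 genes, those without overlap, 0, were 1 on TPM, 1 by library size only and 0 to 2 with one sample left out. For the length weight they were 1 when centred by the mean and 0 to 2 with one sample left out. The share of all genes without overlap under these settings is not given here. With a sample left out, groups separate more readily, so the shares of the main comparison do not apply. Leaving out one sample gave 1 to 5 family members in place of 4, 1 to 8 effectors in place of 6, 0 to 1 partners, 0 to 1 Gq genes and 0 prostaglandin genes. With the index there were 2 effectors and 1 prostaglandin gene, where 3.18% of all genes had an unadjusted p under 0.05. For the other alternatives the share of all genes at this p is not given here. These counts therefore cannot be set against a background.

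The labels do not say whether replicate numbers pair the samples. Correlations of deviations between samples sharing a number were 0.03, -0.03, 0.16 and 0.24 for numbers 1 to 4. For CNO replicates 1 to 4 the closest vehicle samples were replicates 2, 1, 3 and 3. These values cannot show whether samples were handled in pairs. With the replicate block 0 of the 10 genes were called. *Rgs2* and *Gadd45g* had unadjusted p of 0.0104 and 0.0439 by edgeR's quasi-likelihood test, and 3 effectors were under 0.05. The share of all genes under 0.05 in this fit is not given here.

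Scaling moved the balance of all genes: 35.2% of those at an unadjusted p under 0.05 were higher in CNO, against 40.6% with RLE size factors, 14.9% by library size only and 19.7% by limma, with 5 of the 10 genes positive each time. The 2 most abundant genes took 17.6% to 28.3% of counts.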
